A study of Mus musculus with 48 samples.

Results

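Cytochrome P450 families 1 to 3 hold the enzymes that carry most of the liver's oxidation of drugs, hormones and other foreign or fatty compounds. Their genes were taken as every protein-coding gene whose symbol is Cyp followed by 1, 2 or 3, a single subfamily letter and a number. This gave 52 of the 29221 genes in the joined count tables: 3 of family 1, 42 of family 2 and 7 of family 3, in 15 subfamilies. A further 16 symbols of these families stayed out by that rule, 13 of them pseudogenes and 3 of them coding genes with other symbol forms (Cyp2ab1, Cyp3a41a and Cyp3a41b).

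The levels come from RNA-seq of whole liver of 48 adult mice that all carried a floxed Pparg gene, the gene of the nuclear receptor PPARγ. At week 16 of the diet every mouse received an AAV8 virus with the TBG promoter, which is active in hepatocytes: AAV8-TBG-Cre in the mice labelled hepatocyte-specific knockout and AAV8-TBG-null in the controls. Females had 34 weeks of a low fat (LF) diet, 34 weeks of a high fat (HF) diet, or 18 weeks of HF and then 16 weeks of a diet rich in fat, cholesterol and fructose (HFCF), with 4 control and 4 labelled-knockout livers on each. Males had the HF and the HFCF schedules, with 6 control and 6 labelled-knockout livers on each. Ages and the background strain are not given in the sources used here, and in whole liver the cells that the virus did not reach are measured with the rest. Nothing in the labels ties a male to a female cohort, so sex and any difference in the handling of the cohorts cannot be told apart.

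A P450 enzyme uses a heme group and electrons passed on by NADPH-cytochrome P450 reductase to insert oxygen into its substrate. In mouse liver many of these genes respond to ligand-activated receptors: the aryl hydrocarbon receptor AHR for family 1, and the receptors CAR (Nr1i3) and PXR (Nr1i2) for subfamilies 2b, 2c and 3a. Several others differ between the sexes, because the pituitary releases growth hormone in pulses in males and more steadily in females, and hepatocytes read that pattern through STAT5b. Subfamilies sit in tandem clusters of recent copies, so neighbouring genes can be nearly alike in sequence and still differ in regulation.

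The pair Cyp2a4 and Cyp2a5 shows why reads of such copies have to be read with care. Their sequences are printed because these close copies differed in the size of their sex difference. Cyp2a4 hydroxylates testosterone and Cyp2a5 hydroxylates coumarin. Their coding sequences of 1482 bases differ at 23 positions, an identity of 98.4%. The stretch from coding base 580 to 669, from the GENCODE M21 transcripts, holds 5 of these differences, in capitals.

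Cyp2a4: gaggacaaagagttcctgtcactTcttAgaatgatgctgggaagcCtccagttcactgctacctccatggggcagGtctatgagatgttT

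Cyp2a5: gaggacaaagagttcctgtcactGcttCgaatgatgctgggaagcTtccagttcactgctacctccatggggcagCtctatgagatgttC

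The DNA upstream of the same genes is as close. In the 216 bases before the transcribed part (RefSeq on GRCm38.p6, plus strand, chr7:26306943-26307158 for Cyp2a4 and chr7:26835089-26835304 for Cyp2a5), 4 bases differ, again in capitals, and 98.1% are identical. This window leaves out the bases nearest the RefSeq starts, where both genes have the letters TATAAA.

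Cyp2a4: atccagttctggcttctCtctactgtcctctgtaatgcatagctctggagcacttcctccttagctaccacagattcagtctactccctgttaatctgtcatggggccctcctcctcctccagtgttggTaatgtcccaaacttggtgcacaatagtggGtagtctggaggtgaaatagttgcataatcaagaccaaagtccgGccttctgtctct

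Cyp2a5: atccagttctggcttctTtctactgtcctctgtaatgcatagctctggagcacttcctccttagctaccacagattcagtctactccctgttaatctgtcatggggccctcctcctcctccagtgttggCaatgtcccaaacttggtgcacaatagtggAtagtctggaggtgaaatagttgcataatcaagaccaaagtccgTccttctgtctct

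Cyp2b9 and Cyp2b13, both known as female-predominant liver genes, are the other pair on which the results turn. Over the 250 bases before their RefSeq starts (chr7:26173159-26173408 and chr7:26061245-26061494, plus strand) only the 2 bases in capitals differ, and 99.2% are identical, while their coding sequences of 1473 bases differ at 107 positions.

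Cyp2b9: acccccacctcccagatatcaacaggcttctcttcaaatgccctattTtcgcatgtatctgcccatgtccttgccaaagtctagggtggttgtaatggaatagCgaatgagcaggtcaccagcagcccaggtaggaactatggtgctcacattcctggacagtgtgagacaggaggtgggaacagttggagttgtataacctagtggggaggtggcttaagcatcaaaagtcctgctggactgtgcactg

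Cyp2b13: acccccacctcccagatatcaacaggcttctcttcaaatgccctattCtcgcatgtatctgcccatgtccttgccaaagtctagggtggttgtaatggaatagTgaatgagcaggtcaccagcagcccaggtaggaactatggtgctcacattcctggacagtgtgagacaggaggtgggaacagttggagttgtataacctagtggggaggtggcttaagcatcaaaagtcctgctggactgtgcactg

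Across the family, reads of close copies could not always be assigned to 1 gene. Of all 50-base stretches in their GENCODE M21 transcripts, 14 members shared over 25% with another gene and 24 shared over 10%, and 7 shared none. The largest shares were 60.3% for Cyp2c40, 54.3% for Cyp2c69, 52.8% for Cyp2c67 and 43.3% for Cyp2c68. Cyp2a4 shared 38.8%, Cyp2b13 27.3%, Cyp3a44 26.5%, Cyp2c54 25.7% and Cyp2b9 11.2%. How the authors' counting treated reads that fit several genes is not given in the sources used here, so the split between such copies is uncertain throughout. Of the 10 members that overlap another annotated gene, Cyp2t4 overlaps the far more abundant Egln2, and Cyp2f2 overlaps the antisense gene Gm15883, whose reads came to 1.98% of its own. The libraries were not strand specific, so sense and antisense reads cannot be told apart.

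RefSeq promoters were matched for 45 of the 52 members. In the 250 bases before the start, on both strands, CAAAGTCCA, a form of the site bound by the hepatocyte factor HNF4A, was found in 8 of 45 (17.8%), against 0.381% of 27025 promoters: Cyp2c40, Cyp2c65, Cyp2c67, Cyp2c68, Cyp2c69, Cyp2c70, Cyp3a11 and Cyp3a16. TATAAA was found in 22 of 45 (48.9%, against 13% of all). GCGTG, the core that AHR binds, was in 6 of 45 (13.3%, against 28.2%), among them Cyp1a1 and Cyp1b1, and TTCNNNGAA, a STAT5-type site, was in 0 of 45 (against 7.18%). These are matches of letters in recent copies of few ancestors.

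Libraries held 15338239 to 22072884 reads on genes, and the P450s took 1.05% to 2.73% of them. Xist and Ddx3y placed every library with its labelled sex. Markers of pancreas, fat and kidney, 2 genes each, were near 0, with summed levels of at most 1.13 CPM. Those of intestine (Fabp2, Vil1 and Lct) summed to 59.7 to 187 CPM, and the source of these reads was not tested. Hepatocyte markers were high in every library, with a summed level over 7 genes of 41279.7 to 123720.00 CPM. Levels are given in CPM, read counts scaled to library size by the TMM method, unless a sentence says per kb. Pparg itself was not lower in the labelled knockouts: its mean went from 10.5 to 15.6 CPM in LF females, 18.6 to 28.8 in HF females, 23.7 to 46.0 in HFCF females, 34.3 to 41.2 in HF males and 32.0 to 55.9 in HFCF males. These counts span the whole gene and do not check the deletion, so the groups are called labelled knockouts here. A gene is called changed where its edgeR p-value, adjusted over all genes tested in that comparison, is under 0.05. A set of 3 libraries stood apart from their groups in macrophage and collagen genes: control replicate 1 of HFCF males (Gpnmb at 23.2 CPM against 64.1 to 133), control replicate 1 of HF females (19.5 against 0.368 to 2.55) and labelled-knockout replicate 1 of HFCF females (21 against 48.4 to 80.9). Where leaving them out ended a call of a member named here, the value without them is given too. Where it moved a count of called members by at least 1.5 times, that count or the members gained are given. For fits with libraries left out, the share of all genes called is not given. A moved count is therefore not read as particular to the P450s.

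Per kb of transcript, Cyp2e1 led the family by far. Averaged over the 10 group means it stood at 2943 CPM per kb, followed by Cyp2d26 at 605, Cyp2a5 at 452, Cyp2d10 at 374, Cyp2a4 at 305, Cyp3a11 at 289 and Cyp3a25 at 288. In their highest group, 31 members averaged at least 100 CPM, 6 stood between 10 and 100, 7 between 1 and 10, and 8 under 1: Cyp2b19, Cyp2c65, Cyp2d11, Cyp2d34, Cyp2j8, Cyp2j13, Cyp2t4 and Cyp3a57. Of all P450 reads in HF control females, 40.9% were of Cyp2e1, 13.5% of subfamily 2a, 13.3% of 2c, 11.8% of 2d, 9.06% of 3a and 5.0% of 2b (means, n = 4). HF control males had 39.4% of Cyp2e1, 6.64% of 2a, 9.18% of 2c, 17.7% of 2d, 16.4% of 3a and 1.44% of 2b (n = 6).

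**Figure D1:**
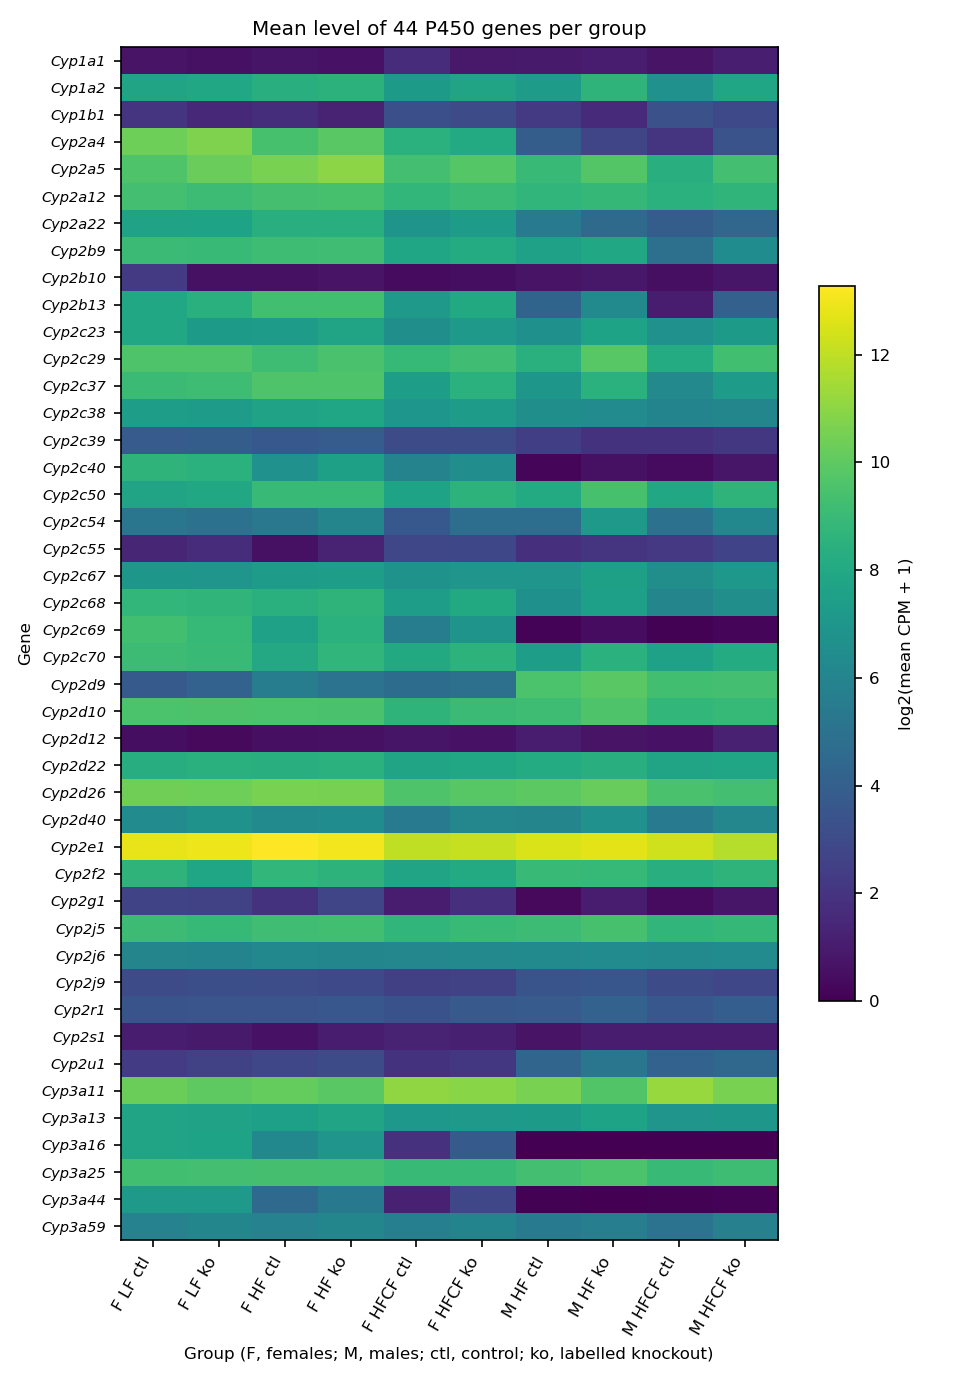
Mean level of the 44 P450 genes that reached 1 CPM in some group (rows, by subfamily) in each of the 10 groups (columns; F, females; M, males; ctl, control; ko, labelled knockout), coloured by log2(mean CPM + 1). Cyp2e1 is bright in every column, while Cyp2a4, Cyp2c40, Cyp2c69, Cyp3a16 and Cyp3a44 are dark in the 4 male columns and Cyp2d9 is darker in the 6 female ones.

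The group means that follow are in CPM, each pair a control and a labelled-knockout mean (n = 4 livers for females, 6 for males), with the SD as a percent of the mean over groups of at least 1 CPM. In family 1, Cyp1a2, the constitutive liver enzyme that clears caffeine, averaged 218 and 251 in LF females, 317 and 371 in HF females, 152 and 212 in HFCF females, 156 and 397 in HF males and 103 and 225 in HFCF males (SD 13.6% to 47.6%). Cyp1a1, its inducible neighbour, was low, with means of 0.649 and 0.509 in LF females, 0.681 and 0.583 in HF females, 2.24 and 0.884 in HFCF females, 0.936 and 1.08 in HF males and 0.645 and 1.17 in HFCF males. Cyp1b1, which hydroxylates estrogens, averaged 3.05 and 1.89 in LF females, 2.35 and 1.39 in HF females, 8.5 and 7.07 in HFCF females, 3.77 and 2.13 in HF males and 8.71 and 6.72 in HFCF males (SD 23.5% to 120.4%). Cyp1a2 was thus the family 1 gene of these livers, and Cyp1b1 was highest in the 4 HFCF groups.

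In subfamily 2a, Cyp2a4 averaged 1324 and 1689 in LF females, 674 and 943 in HF females, 361 and 276 in HFCF females, 14 and 5.92 in HF males and 3.13 and 9.52 in HFCF males (SD 17.6% to 102%). Cyp2a5 averaged 789 and 1194 in LF females, 1565 and 2006 in HF females, 623 and 883 in HFCF females, 495 and 853 in HF males and 317 and 640.2 in HFCF males (SD 10.3% to 69.2%). Cyp2a12, which hydroxylates testosterone and bile acids, averaged 625 and 541 in LF females, 658 and 683 in HF females, 449.96 and 529.7 in HFCF females, 425 and 466 in HF males and 360.1 and 407 in HFCF males (SD 5.25% to 27.1%). Every female library of Cyp2a4 lay above every male one, whereas Cyp2a5 and Cyp2a12 were abundant in both sexes. In subfamily 2b, Cyp2b9 averaged 529 and 507 in LF females, 566 and 589.8 in HF females, 231 and 287 in HFCF females, 194 and 244 in HF males and 28.4 and 87.7 in HFCF males (SD 12.2% to 60.2%). Cyp2b13 averaged 236 and 340.2 in LF females, 612 and 615 in HF females, 146 and 267 in HFCF females, 18.5 and 81.2 in HF males and 1.03 and 15.6 in HFCF males (SD 7.08% to 69.7%). Cyp2b10, the textbook CAR target, stayed near or below 1 CPM in the means of 9 groups, and its mean in LF control females, 3.86 CPM, came from 1 library at 14.1 CPM.

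The 14 members of subfamily 2c lie on chromosome 19, with 13 of them between 39007019 and 40187333 and Cyp2c23 apart at 44005022 to 44029208, and most are known to oxidise arachidonic or linoleic acid. Cyp2c29, a CAR target, averaged 801 and 778 in LF females, 565 and 717 in HF females, 468 and 597 in HFCF females, 341 and 897 in HF males and 289.9 and 602 in HFCF males (SD 13.1% to 82.9%). Cyp2c37, likewise inducible through CAR, averaged 523 and 572 in LF females, 781 and 785 in HF females, 168 and 354 in HFCF females, 128 and 359.5 in HF males and 75.8 and 157 in HFCF males (SD 19.2% to 82.5%). Cyp2c50 averaged 217 and 240.3 in LF females, 496 and 489 in HF females, 205 and 383 in HFCF females, 278 and 670.2 in HF males and 239 and 404 in HFCF males (SD 16.7% to 61.6%). All 3 were expressed in every library. Cyp2c54, 95.2% identical to Cyp2c50 in coding sequence, averaged 36.7 and 30.2 in LF females, 39 and 64.7 in HF females, 11.5 and 26.3 in HFCF females, 26.7 and 143 in HF males and 31.1 and 73.3 in HFCF males (SD 25.3% to 115%). Cyp2c70, which makes the muricholic acids particular to rodent bile, averaged 541 and 503 in LF females, 255 and 431 in HF females, 270.1 and 379 in HFCF females, 164 and 361 in HF males and 193 and 284 in HFCF males (SD 14.7% to 41.4%). Cyp2c54 thus varied more between livers of a group than Cyp2c70 did. Cyp2c39, a retinoic acid hydroxylase, averaged 13.1 and 13.9 in LF females, 11.8 and 13.5 in HF females, 7.16 and 7.24 in HFCF females, 4.55 and 2.8 in HF males and 2.91 and 3.5 in HFCF males (SD 15% to 44.6%). Cyp2c55, which is inducible through CAR and PXR, averaged 1.66 and 2.27 in LF females, 0.538 and 1.53 in HF females, 6.21 and 6.25 in HFCF females, 2.42 and 2.97 in HF males and 3.6 and 5.45 in HFCF males (SD 19.9% to 79.9%). Both were minor genes of the cluster in these livers. Cyp2c40 averaged 402 and 351 in LF females, 106 and 189 in HF females, 61.3 and 88.7 in HFCF females, 0.194 and 0.503 in HF males and 0.29 and 0.769 in HFCF males. Cyp2c69 averaged 618 and 473 in LF females, 194 and 358 in HF females, 48.4 and 115 in HFCF females, 0.0764 and 0.373 in HF males and 0.0669 and 0.144 in HFCF males. These 2 were at or near 0 in every male group.

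Among the other family 2 genes, Cyp2d9, the male-predominant steroid hydroxylase, averaged 12.4 and 17.1 in LF females, 49.3 and 31.7 in HF females, 24.5 and 29.1 in HFCF females, 727 and 942 in HF males and 613 and 644 in HFCF males (SD 9.35% to 66.7%). Cyp2d40 averaged 84.6 and 109 in LF females, 78.7 and 86.5 in HF females, 44.7 and 70.7 in HFCF females, 64.6 and 105 in HF males and 45.2 and 68.7 in HFCF males (SD 15% to 38.8%). Cyp2e1, which oxidises ethanol and is found around the central vein, averaged 7327 and 7866 in LF females, 9944 and 8514 in HF females, 4067 and 4393 in HFCF females, 5860.4 and 6835 in HF males and 5106 and 3592 in HFCF males (SD 16.9% to 47.5%). The ranges of Cyp2d9 did not overlap between the sexes. Cyp2f2, known for bioactivating naphthalene and for its periportal place in the liver lobule, averaged 403 and 225 in LF females, 450.4 and 380.5 in HF females, 218 and 276 in HFCF females, 519.6 and 474 in HF males and 328 and 404 in HFCF males (SD 5.33% to 61%). Cyp2j5, an arachidonic acid epoxygenase, averaged 547 and 481 in LF females, 592 and 609.5 in HF females, 431 and 497 in HFCF females, 541 and 673 in HF males and 421 and 463 in HFCF males (SD 8.29% to 22.7%). Cyp2r1, the vitamin D hydroxylase of the liver, averaged 9.75 and 10.4 in LF females, 10.3 and 11 in HF females, 9.13 and 12.2 in HFCF females, 13.2 and 17.1 in HF males and 11.1 and 14.9 in HFCF males (SD 7.24% to 32.5%). Cyp2j5 and Cyp2r1 kept their means in narrower ranges than Cyp2f2 did. Cyp2u1, a hydroxylase of long-chain fatty acids, averaged 4.02 and 4.92 in LF females, 6.18 and 7.64 in HF females, 2.8 and 3.49 in HFCF females, 19.3 and 36.2 in HF males and 16.8 and 21.2 in HFCF males (SD 19.4% to 48.6%).

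In family 3, Cyp3a11, the main PXR target of mouse liver and the counterpart of human CYP3A4, averaged 1258 and 1000.5 in LF females, 1116 and 953 in HF females, 2168 and 1906 in HFCF females, 1569 and 803 in HF males and 2414 and 1548 in HFCF males (SD 5.23% to 27.5%). Cyp3a13 averaged 218 and 203 in LF females, 183 and 217 in HF females, 137 and 139 in HFCF females, 148 and 208 in HF males and 119 and 129 in HFCF males (SD 11.5% to 30.5%). Cyp3a25 averaged 614 and 636 in LF females, 649 and 627 in HF females, 515 and 517 in HFCF females, 644 and 719.8 in HF males and 499 and 578 in HFCF males (SD 3.08% to 18.1%). Cyp3a11 had its highest mean in each sex in the HFCF controls, and Cyp3a25 had among the steadiest levels of the family. Cyp3a59 averaged 58.4 and 67.2 in LF females, 57.9 and 67.1 in HF females, 51.6 and 62.6 in HFCF females, 44.3 and 49.5 in HF males and 32.7 and 54.8 in HFCF males (SD 10% to 30.2%). Cyp3a16 averaged 218 and 204 in LF females, 71.5 and 119 in HF females, 2.78 and 12.7 in HFCF females, 0.0171 and 0.0228 in HF males and 0.0173 and 0 in HFCF males. Cyp3a44 averaged 145 and 143 in LF females, 22.2 and 40.6 in HF females, 1.35 and 6.22 in HFCF females, 0.0573 and 0.0331 in HF males and 0.0453 and 0.0894 in HFCF males. These last 2 were female genes at near 0 in males, and female livers of 1 group differed widely: in HF control females Cyp3a16 stood at 0.519, 195, 1.74 and 88.1 CPM, and Cyp3a44 was low in the same 2 libraries.

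The widest log2 differences of the family were those between the sexes. Males and females were compared within each of 4 settings, HF and HFCF diet, controls and labelled knockouts, which share no library. In all 4 settings 7 members were called lower in males (Cyp2a4, Cyp2a22, Cyp2b9, Cyp2b13, Cyp2c38, Cyp2c39 and Cyp2c68) and 2 were called higher (Cyp2d9 and Cyp2u1). Cyp2c40, Cyp2c69, Cyp3a16 and Cyp3a44 were at or near 0 in males and could be tested through the females alone, so they are given by their reads and are in no count of calls by sex. In HF controls 19 of 34 members with a mean of at least 1 CPM in both sexes were called, 17 lower and 2 higher in males. Of all genes tested there, 18.1% were called, 9.58% lower and 8.52% higher, with no such minimum in both sexes. Fewer cells of a type and less RNA per cell cannot be told apart in these bulk samples, here or in any comparison that follows.

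Cyp2d9 (ENSMUSG00000068086, chromosome 15, 82433437 to 82456845, plus strand) stood at 485, 704 and 974 CPM (lowest, median and highest of 6) in HF control males. HF control females had 74.3, 31.5, 49.6 and 41.9 CPM. No female library came near a male one, and the log2 difference was 3.88 (SE 0.27, adjusted p = 6.21e-06). In HF labelled knockouts it was 4.88, in HFCF controls 4.66 and in HFCF labelled knockouts 4.48, each called. Cyp2u1 (chromosome 3) stood at 14, 19.4 and 23.3 CPM in HF control males and at 4.67, 7.86, 8.03 and 4.17 CPM in HF control females, with no overlap. Its log2 difference was 1.64 (SE 0.21, adjusted p = 0.000603), and 2.21, 2.6 and 2.62 in the other 3 settings. The other calls of higher levels in males each came from 1 or 2 settings: Cyp2j6 (0.28) and Cyp2r1 (0.64) in HF labelled knockouts, Cyp2j9 in HF labelled knockouts (0.69) and HFCF controls (0.63), and Cyp2c54 in HFCF labelled knockouts (1.49). Cyp2c55 in HF controls differed by 2.14, from a female mean of 0.538 CPM. Being under 1 CPM in females, it is outside the count of calls given for that setting. With 1 library less, the call of Cyp2j9 in HFCF controls was missing from 7 of 10 fits (without male replicate 3, 4 or 6 or female replicate 1, 2, 3 or 5, adjusted p up to 0.124). In HF labelled knockouts Cyp2j6 was not called without female replicate 3 or 4, Cyp2j9 without female replicate 1 and Cyp2r1 without female replicate 1, and in HFCF labelled knockouts Cyp2c54 was not called without female replicate 3 (adjusted p up to 0.0504, 0.0526, 0.0673 and 0.0709).

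Among the genes higher in females, several were all but silent in males. Ratios here are of shares of all reads on genes, without TMM scaling. Cyp2c69 in HF controls had 12639 reads over the 4 females and 8 over the 6 males, a share 2445 times as high in females (95% exact counting interval, 1241 to 5665). Cyp2c40 had 6896 reads over the 4 females and 21 over the 6 males, a share 508 times as high in females (95% exact counting interval, 332 to 822). Cyp3a44 had 1442 reads over the 4 females and 6 over the 6 males, a share 372 times as high in females (95% exact counting interval, 170.5 to 1015). These intervals cover the counting of reads only, not the spread between livers. Cyp3a16 had 4632 reads in the females, nearly all from 2 livers, and 2 in the males of that setting. In HFCF labelled knockouts it had 728 reads in 4 females, 44.6 CPM in replicate 1 and at most 3.96 CPM in the others, and 0 in 6 males, at least 369-fold higher in females against a floor of 3 reads over the male group.

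Cyp2a4 (ENSMUSG00000074254, chromosome 7, 26307169 to 26315088, plus strand) and Cyp2a5 (ENSMUSG00000005547, chromosome 7, 26835305 to 26843548, plus strand) differed in the size of their sex difference in spite of their likeness. Cyp2a4 in HF control males stood at 3.81, 11.9 and 26.6 CPM and in HF control females at 748, 785, 521 and 644 CPM. The groups were far apart, with a log2 difference of -5.6 (SE 0.41, adjusted p = 1.09e-05), and -7.32, -6.87 and -4.87 in HF labelled knockouts, HFCF controls and HFCF labelled knockouts. Cyp2a5 stood at 355, 476 and 667 CPM in the same males and at 752, 2048, 1494 and 1966 CPM in the same females. Its groups did not overlap either, but the log2 difference was -1.67 (SE 0.25, adjusted p = 0.00138). It was called in HF labelled knockouts (-1.24) and not in HFCF controls (-0.97, adjusted p = 0.307) or HFCF labelled knockouts (-0.46, adjusted p = 0.321). Without control replicate 1 of HFCF males it was called in HFCF controls, at -1.42 (adjusted p = 0.0194). How many of the few male Cyp2a4 reads belong to Cyp2a5 was not tested.

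Cyp2b13 (ENSMUSG00000040583, chromosome 7, 26061497 to 26096197, plus strand) and Cyp2b9 (ENSMUSG00000040660, chromosome 7, 26173411 to 26210661, plus strand) differed in depth of the sex difference. In HFCF control males Cyp2b13 stood at 0.555, 1.12 and 1.57 CPM and in HFCF control females at 169, 71.8, 229 and 114 CPM. The log2 difference was -7.1 (SE 0.35, adjusted p = 1.72e-07). The female and male ranges were far apart. Cyp2b9 stood at 12.8, 21.9 and 53.4 CPM in those males and at 257, 155, 298 and 215 CPM in those females, a log2 difference of -3.01 (SE 0.37, adjusted p = 0.00075). Over HF controls, HF labelled knockouts, HFCF controls and HFCF labelled knockouts, the log2 differences were -5.06, -2.93, -7.1 and -4.1 for Cyp2b13 and -1.55, -1.28, -3.01 and -1.7 for Cyp2b9.

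The remaining genes lower in males in every setting kept a clear male level. Cyp2a22 had log2 differences of -2.87, -3.82, -3.02 and -2.95 over the same order of settings. Cyp2c39 had -1.38, -2.27, -1.29 and -1.04. Cyp2c68 had -1.74, -1.18, -1.4 and -1.49, and Cyp2c38 had -1.03, -1.41, -0.99 and -1.21. The call of Cyp2c39 in HFCF labelled knockouts (adjusted p = 0.0441) was missing from 8 of 10 fits with 1 library less (without male replicate 1, 2, 3, 4 or 5 or female replicate 1, 3 or 4, adjusted p up to 0.111). Without female replicate 1, which stood apart, it was at -0.87 (adjusted p = 0.082). Cyp2e1 was called lower in males in HF controls, with a log2 difference of -0.77 (SE 0.21, adjusted p = 0.0241). That call was missing from 5 of 10 fits with 1 library less (without male replicate 1, 3 or 5 or female replicate 2 or 4, adjusted p up to 0.0933). In HF labelled knockouts, HFCF controls and HFCF labelled knockouts it was at -0.32, 0.34 and -0.28, not called.

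**Figure D2:**
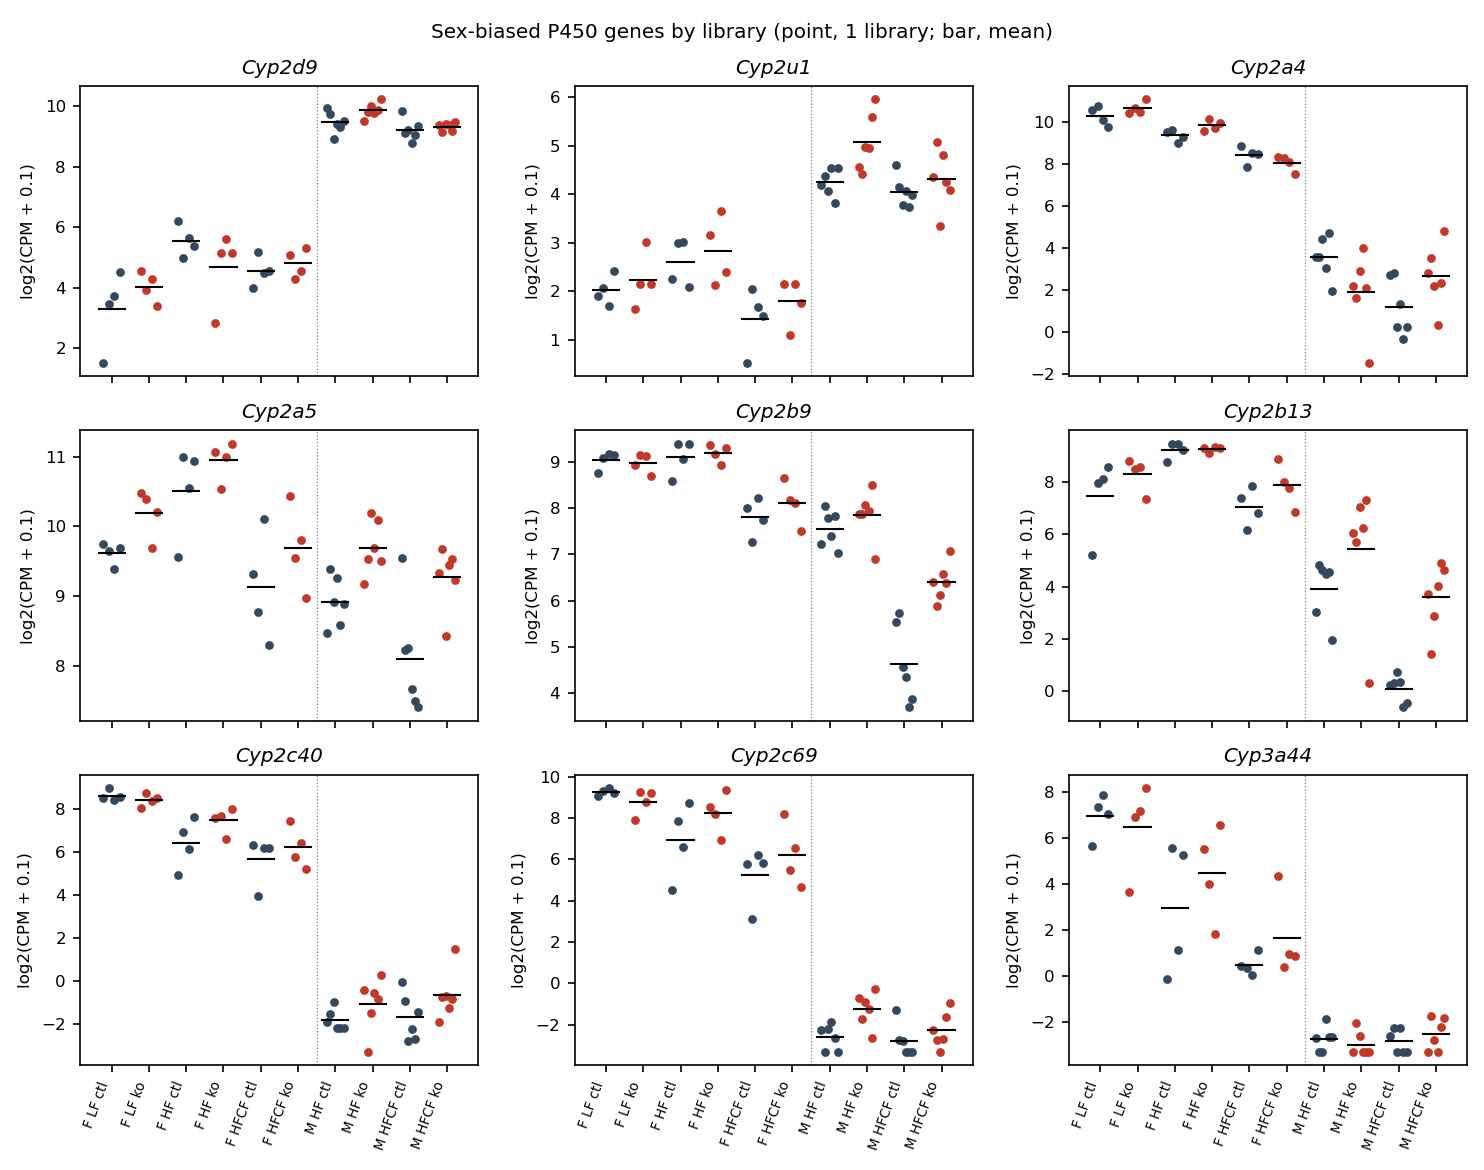
Level of 9 sex-biased P450 genes in each library (points; vertical axis, log2(CPM + 0.1)) of the 10 groups (horizontal axis; F, females; M, males), controls dark and labelled knockouts red, with the mean of each group as a bar. Cyp2d9 and Cyp2u1 sit higher to the right of the dotted line, where the males are, and the other genes sit lower there, Cyp2a5 by far less than Cyp2a4.

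The number of members called by sex moved with the setting and with single libraries. In HF labelled knockouts 17 of 36 members with a mean of at least 1 CPM in both sexes were called (12 lower and 5 higher in males), where 14.3% of all genes were called (7.02% and 7.32%). HFCF controls had 10 of 36 (7 and 3), against 2.63% of all genes (1.34% and 1.3%). HFCF labelled knockouts had 10 of 36 (7 and 3), against 5.4% (1.99% and 3.41%). Without control replicate 1 of HFCF males, Cyp1a2, Cyp2a5, Cyp2a12, Cyp2c29, Cyp2c37, Cyp2c55 and Cyp2c70 were called lower in males in HFCF controls as well. Cux2, a repressor found in female liver, had log2 differences of -6.95, -7.72, -4.51 and -4.03 over the 4 settings, both HFCF ones called. Within HF males it did not pass the filter on low counts, so on HF it could be tested through the females alone. Stat5b was called in none of the 4 settings. Both come from a list of 7 genes of growth hormone signal and sex-biased regulation, whose other genes are not given here by sex. The receptor gene Nr1i3 was lower in males in HF controls (-1.39) and HF labelled knockouts (-1.12), and the reductase gene Por was lower in the same 2 settings (-1.26 and -0.93). On the HFCF diet neither passed the test.

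In males on the HF diet, the labelled knockout went with higher levels of most changed P450s of subfamilies 1a and 2c and with a lower level of Cyp3a11. Of 39 members tested, 23 were called, 19 higher and 4 lower in the labelled knockouts. Over all genes tested 18.5% were called, 8.57% higher and 9.88% lower. The members' median log2 change was 0.32, against 0.00 for all genes.

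Cyp2c54 (ENSMUSG00000067225, chromosome 19, 40037941 to 40073811, minus strand) rose most. Its levels were 12.3, 19.7 and 54.6 CPM (lowest, median and highest of 6) in controls and 59.7, 126 and 299 CPM in labelled knockouts. The groups did not overlap, and the log2 change was 2.41 (SE 0.38, adjusted p = 0.000414). Cyp2c37 went from 82.4, 119 and 212 to 256, 353 and 445 CPM, a log2 change of 1.49 (SE 0.19, adjusted p = 0.000104). Cyp2c29 went from 233, 301 and 547 to 737, 867 and 1061 CPM, a log2 change of 1.39 (SE 0.16, adjusted p = 4.33e-05). Every labelled-knockout liver was above every control for both genes. Further 2c genes rose too: Cyp2c50 by 1.26, Cyp2c70 by 1.13, Cyp2c23 by 1.05, Cyp2c68 by 0.79 and Cyp2c67 by 0.60 on the log2 scale. Of the 2c genes tested, Cyp2c39 alone was called lower (-0.71), and Cyp2c38 (-0.21) and Cyp2c55 (0.29) were not called.

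Cyp1a2 (ENSMUSG00000032310, chromosome 9, 57676937 to 57683703, minus strand) stood at 133, 145 and 189.5 CPM in HF control males and at 269.8, 386 and 529.7 CPM in the labelled knockouts, again with no overlap. The log2 change was 1.34 (SE 0.15, adjusted p = 3.22e-05). Cyp1b1 fell by 0.83 on the log2 scale, and Cyp1a1 was not called (0.20). The gene of the AHR receptor rose by 0.38.

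Cyp3a11 (ENSMUSG00000056035, chromosome 5, 145854426 to 145879964, minus strand) moved the other way. HF control males had 1201, 1617 and 1799 CPM and labelled knockouts 443, 849 and 1026 CPM, so that every labelled-knockout liver lay below every control. The log2 change was -0.97 (SE 0.16, adjusted p = 0.000654). Cyp3a13 rose, with a log2 change of 0.48 (SE 0.12, adjusted p = 0.0124), and Cyp3a25 (0.15) and Cyp3a59 (0.15) were not called. The receptor genes moved by less, Nr1i2 (PXR) by -0.27 and Nr1i3 (CAR) by 0.26, both called.

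Smaller changes in HF males were called for genes of 2a, 2d, 2j, 2r and 2u. Cyp2u1 rose by 0.90, Cyp2a5 by 0.78, Cyp2d40 by 0.69, Cyp2d10 by 0.44, Cyp2r1 by 0.37, Cyp2j5 by 0.31, Cyp2d26 by 0.27 and Cyp2d22 by 0.24, and Cyp2a22 had a change of -0.94. Cyp2e1 (0.22), Cyp2f2 (-0.14), Cyp2d9 (0.37) and Cyp2a4 (-1.24, adjusted p = 0.124) were not called. Cyp2b13 rose by 2.13 (adjusted p = 0.0258) with wide and overlapping groups, 3.81, 22.9 and 28.1 CPM in controls and 1.17, 71.5 and 158 CPM in labelled knockouts. Leaving out 1 library ended the call of Cyp2b13 for 4 of the 12 libraries (labelled-knockout replicates 3 and 5, control replicates 1 and 6), with an adjusted p of up to 0.0668. It also ended those of Cyp1b1 for 7, Cyp2a22 for 5, Cyp2c67 for 4 and Cyp2c39 for 3 libraries, with adjusted p of up to 0.0896, 0.109, 0.0738 and 0.0698, and the other 18 calls held in all 12 fits.

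Markers of hepatocytes and blood moved with this comparison. Of the markers tested, 5 of 7 for hepatocytes, 6 of 7 for periportal hepatocytes, 1 of 6 for pericentral hepatocytes and 3 of 3 for blood rose, and 2 of 5 for macrophages and 2 of 5 for stellate cells fell. Summed hepatocyte markers ran from 63761 to 88748 CPM in controls and from 92045 to 106826 CPM in labelled knockouts. Summed blood markers ran from 152 to 221 and from 154 to 719 CPM, the high values coming from labelled-knockout replicates 3, 4 and 5. Without these 3 livers 18 members were called: Cyp2a5, Cyp2b13, Cyp2c39, Cyp2d26, Cyp2u1 and Cyp1b1 no longer passed, Cyp2a4 passed as lower at -2.44 (adjusted p = 0.0253), and Cyp3a11 was at -1.27 (adjusted p = 0.000991). The part of these cell types in the P450 changes was not tested.

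On the HFCF diet the labelled knockout in males gave fewer calls. Of 40 members tested, 6 were called, 5 higher and 1 lower, against 2.21% of all genes (0.933% higher and 1.27% lower). The members' median was 0.44 and that of all genes -0.01. Cyp3a11 was lower here too, at 2172, 2376 and 2901 CPM in controls and 1178, 1473 and 1970.02 CPM in labelled knockouts, without overlap. Its log2 change was -0.64 (SE 0.12, adjusted p = 0.00921). Cyp1a2 (1.12, adjusted p = 0.0228), Cyp3a59 (0.74, adjusted p = 0.0392) and Cyp2c67 (0.53, adjusted p = 0.0473) rose as well. Of the 12 fits with 1 library less, 8 (Cyp1a2), 9 (Cyp3a59) and 10 (Cyp2c67) did not call them, with adjusted p up to 0.0619, 0.0991 and 0.102. The count then fell to 3 without labelled-knockout replicate 2, 4 or 5 or control replicate 2, 4, 5 or 6.

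The 2b genes made the widest change in HFCF males. Cyp2b13 stood at 0.555, 1.12 and 1.57 CPM in controls and at 2.57, 14.7 and 29.7 CPM in labelled knockouts, a log2 change of 3.89 (SE 0.51, adjusted p = 0.000805). Cyp2b9 stood at 12.8, 21.9 and 53.4 and 59, 83.8 and 135 CPM, a log2 change of 1.63 (SE 0.32, adjusted p = 0.0153). Neither gene's groups overlapped. The labelled knockouts still lay below the HFCF females of either group, whose lowest library was 71.8 CPM for Cyp2b13 and 155 CPM for Cyp2b9.

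Control replicate 1 of HFCF males set the number of these calls. It held 774 CPM of Cyp2c29 where the other 5 controls held 158 to 268, and its P450 share of reads was 1.78% against 1.19% to 1.62%. Without it 22 members were called, 21 higher and 1 lower, among them Cyp2c29 at 1.64 (adjusted p = 5.73e-05), Cyp2c37 at 1.62 (adjusted p = 0.000882), Cyp2c50 at 1.16 (adjusted p = 0.000239), Cyp2c54 at 2.13 (adjusted p = 6.42e-05) and Cyp2a5 at 1.47 (adjusted p = 0.000593). Cyp1a2 was then at 1.42 (adjusted p = 4.59e-05) and Cyp3a11 at -0.67 (adjusted p = 0.0029). The share of all genes called without this library is not given here. Its collagen and macrophage genes were the lowest of the group (Col1a1 91.4 against 225 to 239 CPM), and their part in the difference was not tested.

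In females no P450 was called with the labelled knockout on any diet by edgeR: 0 of 41 tested on LF, 0 of 43 on HF and 0 of 43 on HFCF, where 0.0%, 0.0% and 0.0534% of all genes were called (on HFCF 0.00668% higher and 0.0467% lower). At an unadjusted p under 0.05 the counts were 2, 4 and 7, and over all genes 355 of 14285, 1135 of 14128 and 1340 of 14980. The DESeq2 Wald test called 1, 0 and 0 members. The 1 call was Cyp2f2 on LF, at 522, 322, 371 and 397 CPM in controls and 215, 217, 242 and 226 CPM in labelled knockouts, with no overlap. Its edgeR log2 change was -0.83 (SE 0.15, adjusted p = 0.925). Cyp3a11 had log2 changes of -0.32, -0.23 and -0.17 on the 3 diets, and Cyp1a2 0.21, 0.23 and 0.50, with groups that overlapped.

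With 4 livers per group the female intervals were wide. The 95% intervals here use a normal approximation, which makes them too narrow for groups of this size. For Cyp1a2 on HF the interval of the log2 change was -0.31 to 0.78 in females, and in males it was 1.04 to 1.64. For Cyp3a11 the HF intervals were -0.62 to 0.17 in females and -1.29 to -0.66 in males. The difference between the sexes was tested as an interaction, which called 0 of 44 members on HF and 0 of 45 on HFCF with edgeR (0.0% of all genes in both). At an unadjusted p under 0.05 there were 15 and 6 members, and over all genes 1590 of 15024 and 1515 of 15673. The DESeq2 Wald test called 1 and 1 members. Given as the male minus the female change, for Cyp3a11 on HF the interaction was -0.74 (adjusted p = 0.408) and for Cyp1a2 1.12 (adjusted p = 0.319). Without control replicate 1 of HF females, whose Cyp1a2 was 144 CPM against 313 to 412 in the other 3, 5 members were called, all more positive in males: Cyp1a2 at 1.36 (adjusted p = 0.0128), Cyp2c29 at 1.24 (adjusted p = 0.0302), Cyp2c37 at 1.81 (adjusted p = 0.0268), Cyp2c50 at 1.52 (adjusted p = 0.00759) and Cyp2d10 at 0.63 (adjusted p = 0.0268).

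Whether the labelled-knockout change differed between the HFCF and HF diets was tested as an interaction as well. It called 0 of 41 members in males, where 1.56% of all genes were called (0.987% positive and 0.57% negative), and 0 of 44 in females (0.0%). At an unadjusted p under 0.05 there were 12 and 2 members, and over all genes 2574 of 15096 and 667 of 15445. The DESeq2 Wald test called 3 and 0 members. Without control replicate 1 of HFCF males 1 member was called in males, Cyp2d12 at 2.21 (adjusted p = 0.0237). Given as the HFCF minus the HF change, for Cyp2b13 in males the interaction was 1.73 (adjusted p = 0.404), for Cyp2b9 1.29 (adjusted p = 0.0958) and for Cyp3a11 0.31 (adjusted p = 0.484).

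On the HFCF diet most of the P450s that changed were lower than on HF, and a few were higher. In the 4 settings, male and female controls and labelled knockouts, which share no library, Cyp2b9, Cyp2b13 and Cyp2d26 were called lower and Cyp3a11 and Cyp1b1 higher every time, though with 1 library less several of these calls were missing, as given with each gene. Cyp2c55 was called higher in all 4 too, but it stood under 1 CPM in every HF control female and entered that test through the HFCF livers. In at least 1 setting 30 members were called lower and 5 higher. Male controls had 15 of 39 called (12 lower and 3 higher), where 22.3% of all genes were called (9.31% lower and 13.0% higher). Female controls had 29 of 43 (25 and 4), against 30.8% of all genes (13.8% and 16.9%). The members called higher there include Cyp2c55 and Cyp2s1, both under 1 CPM in every HF control female.

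Male labelled knockouts had 25 of 40 members called (21 lower and 4 higher), against 41.7% of all genes (20.0% and 21.6%). Female labelled knockouts had 13 of 43 (10 and 3), against 14.5% (6.01% and 8.44%). The members' median log2 changes were -0.34 in male controls, -0.44 in male labelled knockouts, -0.77 in female controls and -0.48 in female labelled knockouts, where those of all genes were 0.01, -0.02, -0.02 and -0.01. The P450 share of all reads stood at 2.24% ± 0.519 (SD, n = 4) in HF control females and 1.4% ± 0.239 in HFCF control females, and at 1.47% ± 0.135 (n = 6) and 1.42% ± 0.229 in control males. The counts moved with single libraries. Without control replicate 1 on HFCF 28 members were called in male controls, and without labelled-knockout replicate 1 on HFCF 33 in female labelled knockouts. In the latter 6 were left without HFCF replicate 2, 3 or 4 or HF replicate 1 or 4. In female controls 14 were left without HFCF replicate 1, 15 without HFCF replicate 5, and 18 without HFCF replicate 2 or HF replicate 2 or 3.

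Cyp3a11 rose on HFCF in both sexes. HF control females had 1151, 1503, 757 and 1055 CPM and HFCF control females 2207, 2139.8, 2027 and 2296 CPM, all 4 higher. Its log2 change was 0.97 (SE 0.18, adjusted p = 0.0076) in female controls, 1.0 in female labelled knockouts, 0.65 in male controls and 0.96 in male labelled knockouts. In males the HFCF labelled knockouts stood at 1178, 1473 and 1970.02 CPM and the HF controls at 1201, 1617 and 1799 CPM, so these ranges overlapped.

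Cyp2c55 (ENSMUSG00000025002, chromosome 19, 39007019 to 39042693, plus strand) rose from a very low level. HF control females had 0.98, 0.124, 0.374 and 0.674 CPM and HFCF control females 4.64, 5.46, 7.37 and 7.36 CPM, with no overlap, and the log2 change was 3.51 (SE 0.42, adjusted p = 0.00446). With every HF value under 1 CPM, the gene entered this test through the HFCF livers. In male controls it went from 1.44, 2.62 and 2.92 to 2.62, 3.74 and 4.71 CPM, with overlap and a log2 change of 0.59 (SE 0.19, adjusted p = 0.0396). The call in male controls was missing from 6 of 12 fits with 1 library less (without HFCF replicate 2, 4 or 6 or HF replicate 1, 4 or 6, adjusted p up to 0.081). It rose by 0.88 in male and by 2.01 in female labelled knockouts. The diet-by-sex interaction in controls was -2.91 (SE 0.42, adjusted p = 0.0162), more positive in females, and Cyp2c55 was the 1 member of 45 called, where 0.00646% of all genes were. That call was lost without HFCF female replicate 5 or HF female replicate 3 (adjusted p up to 0.0724) and in a fit of all 10 groups. Without HF female replicate 1, 6 members were called. In labelled knockouts the interaction called 0 of 44 members with edgeR (0.013% of all genes) and 0 by the DESeq2 Wald test. At an unadjusted p under 0.05 there were 5 members, and over all genes 1829 of 15400.

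Cyp1b1 rose in all 4 settings, by 1.24 in male controls, 1.68 in male labelled knockouts, 1.84 in female controls and 2.35 in female labelled knockouts. It stayed at 5.02 to 14.3 CPM in HFCF control males. In female controls (adjusted p = 0.0234) the call was missing from 6 of 8 fits with 1 library less (without HFCF replicate 1, 2 or 5 or HF replicate 2, 3 or 4, adjusted p up to 0.0641), and the change was 2.79 (adjusted p = 9.19e-05) without HF replicate 1. A further 2 members rose in 1 setting each, Cyp2s1 in female controls (1.34, from an HF mean of 0.554 CPM) and Cyp2d12 in male labelled knockouts (1.13). With 1 library less, 6 of 8 and 4 of 12 fits did not call them, without HFCF replicate 1, 2 or 5 or HF replicate 2, 3 or 4 for Cyp2s1 and without HFCF replicate 1, 2 or 4 or HF replicate 1 for Cyp2d12 (adjusted p up to 0.10 and 0.087).

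Cyp2b13 and Cyp2b9 had the widest falls in males. In male controls Cyp2b13 went from 3.81, 22.9 and 28.1 to 0.555, 1.12 and 1.57 CPM without overlap, a log2 change of -4.12 (SE 0.46, adjusted p = 0.000175). Cyp2b9 went from 129.98, 195 and 266 to 12.8, 21.9 and 53.4 CPM, also without overlap, a log2 change of -2.75 (SE 0.33, adjusted p = 0.000239). In male labelled knockouts the changes were -2.38 and -1.46, in female controls -2.06 and -1.28, and in female labelled knockouts -1.21 and -1.04. In female labelled knockouts the call of Cyp2b13 was missing from 6 of 8 fits with 1 library less (without HFCF replicate 2, 3 or 4 or HF replicate 1, 2 or 4, adjusted p up to 0.102), and that of Cyp2b9 from 0. The HFCF male controls are also the controls of the labelled-knockout comparison in HFCF males, so the fall with diet and the rise with the labelled knockout share these 6 libraries.

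The most abundant members fell as well. Cyp2e1 stood at 5917, 12899, 8767 and 12193 CPM in HF control females and at 3653, 3614, 6196 and 2806 CPM in HFCF control females, with overlap through HF replicate 1, and its log2 change was -1.28 (SE 0.30, adjusted p = 0.0141). Its change was -0.91 (SE 0.14, adjusted p = 9.22e-05) in male labelled knockouts, and it was not called in male controls (-0.18) or in female labelled knockouts (-0.95, adjusted p = 0.068). Without labelled-knockout replicate 1 on HFCF it was called in the latter, at -1.27 (adjusted p = 0.0067). Cyp2d26 fell by 0.44 in male controls, by 0.85 in male labelled knockouts, by 0.97 in female controls and by 0.73 in female labelled knockouts on the log2 scale. In the latter its call was missing from 6 of 8 fits with 1 library less, those without the same libraries as for Cyp2b13 (adjusted p up to 0.0804). Cyp2a4 fell in male controls (-2.16), female controls (-0.89) and female labelled knockouts (-1.77), and was not called in male labelled knockouts (0.68). Cyp2a22 was called in the same 3 settings, at -1.6, -1.44 and -1.09, the last of them missing without HFCF replicate 2, 3 or 4 or HF replicate 1 (adjusted p up to 0.0721). Cyp2a5 was called lower in female controls (-1.31) and female labelled knockouts (-1.19), and not in male controls (-0.63, adjusted p = 0.16) or male labelled knockouts (-0.40, adjusted p = 0.109). These 2 calls were missing without HFCF replicate 1, 2 or 5 or HF replicate 2, 3 or 4 in controls and without HFCF replicate 2 or 3 or HF replicate 1 or 4 in labelled knockouts (adjusted p up to 0.0964 and 0.0633), and without HFCF replicate 1 it was at -1.07 (adjusted p = 0.000366) in male controls. Cyp2c68 was called lower in male controls (-0.63), male labelled knockouts (-0.90) and female controls (-0.97). In female labelled knockouts it was at -0.59 (adjusted p = 0.114), or -0.89 (adjusted p = 0.00145) without HFCF replicate 1.

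Cyp1a2 and the 2c genes that had risen with the labelled knockout in HF males were lower on HFCF in some settings. Cyp1a2 fell in male labelled knockouts (-0.81), female controls (-1.05) and female labelled knockouts (-0.81), and in male controls it was at -0.57 (adjusted p = 0.0632), or -0.87 (adjusted p = 1.81e-05) without replicate 1 on HFCF. With 1 library less, 6 of 8 fits in female controls (without HFCF replicate 1, 2 or 5 or HF replicate 2, 3 or 4) and 4 of 8 in female labelled knockouts (without HFCF replicate 2, 3 or 4 or HF replicate 4) did not call it, with adjusted p up to 0.0925 and 0.0603. Cyp2c37 fell in male labelled knockouts (-1.19) and female controls (-2.2), and Cyp2c54 in male labelled knockouts (-0.95). Without replicate 1 on HFCF, Cyp2c37 was at -1.3 (adjusted p = 0.000285) in male controls and -1.81 (adjusted p = 0.00405) in female labelled knockouts. Cyp2c29 was called in male labelled knockouts (-0.56). Without replicate 1 on HFCF it was called in male controls as well, at -0.79 (adjusted p = 0.00376), and in female labelled knockouts, at -0.55 (adjusted p = 0.0182). The HF labelled-knockout males serve in both comparisons. In female controls the widest falls were of Cyp3a16, at -4.66 (SE 1.44, adjusted p = 0.036), and Cyp3a44, at -4.02 (SE 1.12, adjusted p = 0.0255), whose HF levels came mostly from 2 of 4 livers. With 1 library less, 6 and 5 of 8 fits did not call them: without HF replicate 2 or 4 or HFCF replicate 1, 2 or 5 for both and HFCF replicate 3 for Cyp3a16, with adjusted p of up to 0.102 and 0.0701.

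**Figure D3:**
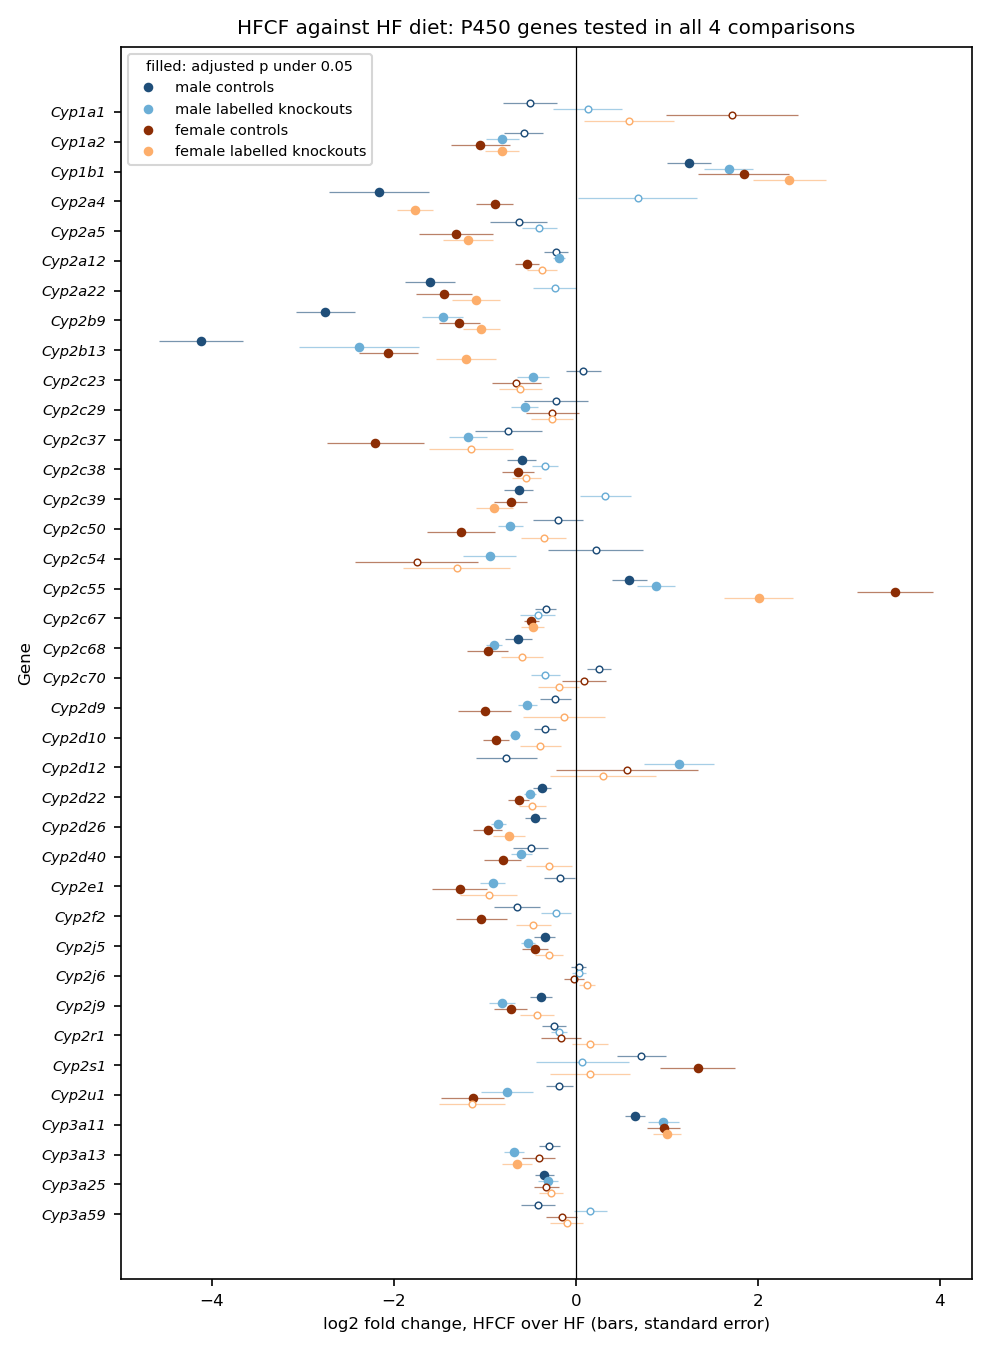
Log2 change with its SE between the HFCF and the HF diet (horizontal axis) for the 38 P450 genes tested in male and female controls and labelled knockouts (vertical axis), 1 colour per comparison, filled points for an adjusted p under 0.05. Most filled points lie left of 0, and Cyp1b1, Cyp2c55 and Cyp3a11 are filled to the right in all 4 comparisons.

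Some other genes of the P450 system were called with this diet too. Of all genes, 1348 of 14475 tested in male controls and 2867 of 14314 in male labelled knockouts were called lower. In female controls these were 2036 of 14701, and in female labelled knockouts 881 of 14650. In the same order 1877, 3095, 2490 and 1237 were called higher. Of the 15 receptors and partners on the list, Nr1i3 (CAR) fell in all 4 settings, by 0.97 in male controls, 0.82 in male labelled knockouts, 1.35 in female controls and 1.47 in female labelled knockouts on the log2 scale. In those settings 7, 6, 6 and 4 genes of the list, of 14 tested (15 in female controls), were called lower and 0, 1, 1 and 0 higher. Nr1i2 (PXR) was called lower in male controls (-0.27) and female controls (-0.35). Of the 5 textbook targets of CAR and PXR among the members, Cyp3a11 and Cyp2c55 rose in every setting, Cyp2c55 from under 1 CPM in HF control females. With every library kept, Cyp2c29 (1 setting) and Cyp2c37 (2 settings) fell. Of the 5 electron donors, 2, 3, 2 and 1 were called lower and 0 higher, with Por itself called in female labelled knockouts (-0.89). Of 9 genes of heme synthesis and breakdown, 1, 4, 4 and 1 were called lower, and Hmox1, which degrades heme, rose in male labelled knockouts (0.37) and female controls (0.59). Where only 1 gene of a list was called, nothing is read into the list. The growth hormone receptor gene Ghr and Igf1 were called lower in all 4.

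Cell type markers moved with the diet in the same comparisons. Of the marker lists, hepatocyte genes were called lower for 4, 7, 6 and 0 of 7 in male controls, male labelled knockouts, female controls and female labelled knockouts, cholangiocyte markers higher for 5 of 5 in each, and macrophage markers higher for 5, 5, 5 and 4 of 5. Summed macrophage markers were 130.2 to 184 CPM in HF and 201 to 583 CPM in HFCF control males, and 78 to 196 and 403 to 614 CPM in the control females. Summed hepatocyte markers were 63761 to 88748 and 41279.7 to 65409.8 CPM in the control males and 92697 to 108859 and 56446 to 69830.1 CPM in the control females. Hnf4a is on both the hepatocyte and the receptor list. The part of these cell types in the P450 changes was not tested.

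**Figure D4:**
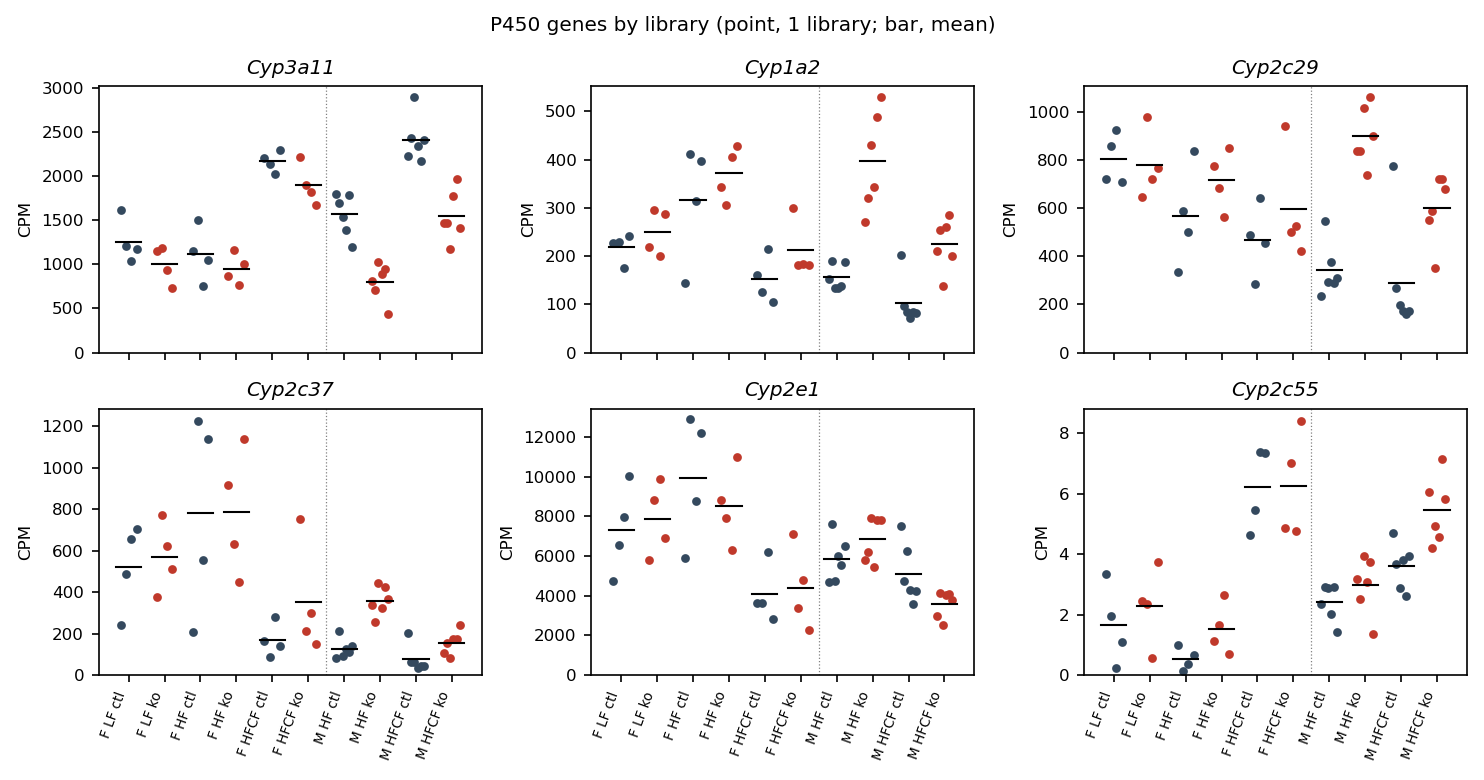
Level of Cyp3a11, Cyp1a2, Cyp2c29, Cyp2c37, Cyp2e1 and Cyp2c55 in each library (points; vertical axis, CPM from 0) of the 10 groups (horizontal axis; F, females; M, males), controls dark and labelled knockouts red, with the mean of each group as a bar. In HF males the red points of Cyp3a11 lie below the dark ones and those of Cyp1a2, Cyp2c29 and Cyp2c37 above them, and 1 dark point of HFCF males stands high for Cyp2c29.

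The HF diet against the LF diet could be compared in females only, and few P450s passed the test. In controls edgeR called 0 of 42 members, where 0.696% of all genes were called, and the DESeq2 Wald test called 6. At an unadjusted p under 0.05 there were 10 members, and over all genes 2314 of 14216. In labelled knockouts 1 of 41 was called, against 0.155% of all genes (0.0704% higher and 0.0844% lower): Cyp2f2, at 215, 217, 242 and 226 CPM on LF and 324, 424, 421 and 353 CPM on HF. Its groups did not overlap, and its log2 change was 0.77 (SE 0.11, adjusted p = 0.0404). With 1 library less, 7 of 8 fits did not call it, all but the fit without LF replicate 1 (adjusted p up to 0.0959). Its LF labelled-knockout libraries are those of the Cyp2f2 difference named for LF females.

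Values that did not pass the test still differed widely between these diets for some sex-biased genes. Cyp2a4 stood at 1544, 1763, 1109 and 881 CPM in LF and 748, 785, 521 and 644 CPM in HF controls, with no overlap and a log2 difference of -0.96 (SE 0.22, adjusted p = 0.0847). Cyp2d9 stood at 2.77, 11, 13.1 and 23 and 74.3, 31.5, 49.6 and 41.9 CPM, a log2 difference of 2.0 (SE 0.49, adjusted p = 0.0928). Cyp2c40 stood at 371, 509.9, 344 and 384 and 30.2, 122, 71.6 and 199 CPM, a log2 difference of -1.91 (SE 0.45, adjusted p = 0.0925). The LF values of Cyp2a4 and Cyp2c40 were all above the HF ones, and those of Cyp2d9 all below. Not every female-predominant member was lower on HF. Cyp2b13 stood at 36.6, 249, 278 and 380 CPM in LF and 439, 700, 707 and 603 CPM in HF controls, every HF value higher. Cyp2b9 stood at 434, 541, 574 and 564 and 383, 669, 538 and 673 CPM, with overlap. Without control replicate 1 on HF, 2 members were called, Cyp2a5 at 1.23 (adjusted p = 0.0139) and Cyp1a2 at 0.79 (adjusted p = 0.042). The members' medians were 0.09 in controls and 0.12 in labelled knockouts, and those of all genes 0.00 in both.

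Not every member could be followed. The filter on low counts kept 36 of the 52 members in all 21 comparisons, 9 in some and 7 in none. The 7 members tested in no comparison held few or no reads: Cyp2b19 had a highest group mean of 0.0247 CPM and Cyp2t4 of 0.715 CPM. Members such as Cyp2c40, Cyp2c69, Cyp3a16 and Cyp3a44, which passed in a sex comparison through the females alone, are therefore described by their reads.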

How the data were processed

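RNA was taken from whole liver with Trizol, and libraries were not strand specific. The authors deposited read counts per gene in 11 tables of pairwise comparisons, and the submitters' processing notes name STAR 2.6.1, HTSeq 0.6.1, DESeq2 and the build GRCm38/mm10. How reads that fit several genes were counted is not given in the sources used here. The raw counts were joined by gene (48 libraries, 1341082 repeated values, 0 differing), so normalisation in the tables was not used.

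Each comparison was fitted on all its genes with the quasi-likelihood F test of edgeR 4.0.16 (R 4.3.3), with TMM scaling, filterByExpr and Benjamini-Hochberg adjustment over all genes tested. Fold changes are log2. There were 21 comparisons: 5 of labelled knockout and control, 6 of diet, 4 of sex and 6 interactions. The labels do not say whether littermates or cages were shared, so p-values measure the spread between these samples. The procedure was tested on simulated data for some of the pairwise comparisons, with the same spread for every gene. That spread was smaller than the one fitted in the female labelled-knockout comparisons, and the interactions were not simulated. The simulation therefore does not show which changes could be found in those.

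The members, lists and comparisons were chosen with earlier results of these data known. Values in every group are given for 31 leading members. In each comparison up to 5 called members higher and up to 5 lower, by size of change with a mean of at least 1 CPM, are named too, and other members mostly by counts. Alternatives were DESeq2 size factors, the DESeq2 1.42.0 Wald test, no filter, a single fit of all 10 groups, a block for the replicate number, and leaving out each library. Leaving out the 3 libraries that stood apart, and the 3 with the most hemoglobin reads, was chosen after seeing the data. Intervals of read ratios are exact at 95% and cover counting error only.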

Additional observations from a re-analysis of the deposited data

Results flagged for a closer look

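A library was singled out where its gap to the nearest liver of its group, as a share of the group's range, was above Dixon's 95% critical value. Of 310 groups of a leading member, 38 held such a library. The 5% level of the critical value holds for independent, normally distributed groups. These groups reuse the same livers over related genes, so no excess over chance is read from the count. Control replicate 1 of HFCF males was singled out most often. It held 202 CPM of Cyp1a2 against 71.4 to 96.6, 749 CPM of Cyp2a5 against 169 to 305, 546 CPM of Cyp2a12 against 306 to 366, 1.16 CPM of Cyp2b10 against 0.104 to 0.454 and 774 CPM of Cyp2c29 against 158 to 268 in the other 5 livers. The same liver held 201 CPM of Cyp2c37 against 36.2 to 65, 533 CPM of Cyp2c50 against 133 to 230.4, 103 CPM of Cyp2c54 against 8.33 to 26.4, 0.306 CPM of Cyp2c69 against 0 to 0.0518 and 288 CPM of Cyp2c70 against 161 to 202. It also held 79.4 CPM of Cyp2d40 against 30.8 to 45.5, 723 CPM of Cyp2f2 against 183 to 295, 611 CPM of Cyp2j5 against 345 to 410.4 and 16.6 CPM of Cyp2r1 against 8.66 to 11.2. In each of these genes it was the highest control.

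Labelled-knockout replicate 1 of HFCF females was the highest of its 4 livers, with 300.02 CPM of Cyp1a2 against 181 to 184, 744 CPM of Cyp2a12 against 446 to 471, 602 CPM of Cyp2c70 against 280.4 to 334, 44.6 CPM of Cyp3a16 against 0.361 to 3.96 and 20.1 CPM of Cyp3a44 against 1.19 to 1.83. Control replicate 1 of HF females held 5.71 CPM of Cyp1b1 against 1.05 to 1.47, and replicate 4 held 1.23 CPM of Cyp2b10 against 0.231 to 0.372. Control replicate 1 of LF females held 8.54 CPM of Cyp1b1 against 0.839 to 1.5 and 14.1 CPM of Cyp2b10 against 0.12 to 0.785. Among HFCF control females, replicate 2 was the lowest, with 15.7 CPM of Cyp2c40 against 73.8 to 81.4 and 0.809 CPM of Cyp3a16 against 3.24 to 3.55, and replicate 3 the highest, with 361 CPM of Cyp2c50 against 143 to 168 and 28.3 CPM of Cyp2c54 against 3.8 to 7.84. Replicate 3 of the LF labelled-knockout females held 296 CPM of Cyp3a13 against 165 to 179.

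In the males, labelled-knockout replicate 6 on HF held 299 CPM of Cyp2c54 against 59.7 to 144 and 26.9 CPM of Cyp3a59 against 48.9 to 59.7, and labelled-knockout replicate 6 on HFCF held 6.54 CPM of Cyp2c39 against 2.4 to 3.66 and 2.66 CPM of Cyp2c40 against 0.165 to 0.515. Control replicate 2 on HF held 636 CPM of Cyp2j5 against 483 to 536, control replicate 3 on HFCF 2901 CPM of Cyp3a11 against 2172 to 2435, and labelled-knockout replicate 3 on HFCF 408 CPM of Cyp3a25 against 553 to 639. Isolated reads set off 3 male groups of silent genes: 0.137 CPM of Cyp3a16 against 0 in HF labelled-knockout replicate 2, 0.104 CPM of Cyp3a16 against 0 in HFCF control replicate 2, and 0.172 CPM of Cyp3a44 against 0 to 0.0594 in HF control replicate 4.

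The diet change of Cyp2c55 differed between the sexes in controls by a test of the difference, at -2.91 on the log2 scale (edgeR, adjusted p = 0.0162), the rise being larger in females.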

How the results depend on the processing

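Counts are of P450s called, and the shares of all genes called under the alternatives are not given here. No called value changed its direction under the alternatives run. The DESeq2 Wald test called 1 for the labelled knockout in LF females, 6 and 9 for HF against LF in female controls and labelled knockouts, 3 for labelled knockout by diet in males, and 1 each for labelled knockout by sex on HF and on HFCF. Without the filter on low counts HF against LF gave 3 in controls and 4 in labelled knockouts. A single fit of all 10 groups gave 5 and 0 for these, and 0 for diet by sex in controls. DESeq2 size factors kept all 185 calls, the 1-fit model 156 and lost 29.

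No comparison had the correlation of every same-numbered pair over 0.1. In some comparisons 2 of 4 pairs were over it, as in HF against LF in female controls (up to 0.34). The check follows replicate numbers only, so it cannot tell whether litters or cages were shared. With the replicate block the count was 3 for the labelled knockout in HFCF males and 0 for HFCF against HF in female controls, HF against LF in female labelled knockouts and diet by sex in controls.

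Leaving out 1 library gave 3 to 22 for the labelled knockout in HFCF males, 12 to 28 for HFCF against HF in male controls, 14 to 35 in female controls and 6 to 33 in female labelled knockouts. It gave 0 to 2 for HF against LF in female controls and 0 to 2 in labelled knockouts, 0 to 2 for labelled knockout by diet in males, 0 to 5 for labelled knockout by sex on HF and 0 to 6 for diet by sex in controls. Without the 3 libraries that stood apart the counts were 22 for the labelled knockout in HFCF males, 28 and 33 for HFCF against HF in male controls and female labelled knockouts, 2 for HF against LF in controls, 1 for labelled knockout by diet in males, 5 for labelled knockout by sex on HF and 8 for diet by sex in controls. Without the 3 livers with the most hemoglobin reads labelled knockout by diet in males gave 1. The cause of these moves was not tested.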
